A study of Mus musculus with 6 samples.

Results

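Parietal epithelial cells line the inner face of Bowman's capsule, the cup that encloses each tuft of glomerular capillaries. They share an embryonic origin with podocytes, the cells that cover the capillaries, and keep transcription factors of the forming nephron that mature podocytes lose. After glomerular injury they can become activated, switch on the hyaluronan receptor CD44, lay down matrix and spread onto the tuft. The 9 genes described here were chosen by name as genes used to mark these cells: the transcription factor genes Pax2 and Pax8, the surface genes Cd44, Ncam1 and Cdh6, the scaffold gene Akap12, the coactivator gene Ncoa7, the secreted factor gene Dkk3 and the actin-severing gene Scin. They are 9 of 18822 genes with values. All 9 were matched by Entrez gene ID.

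The RNA came from renal glomeruli of C57BL/6J mice, in 6 libraries: 3 from mice with a knockout of PR3 (PR3 KO) and 3 from WT mice. Every animal of both genotypes had diabetic kidney disease, so no comparison with a non-diabetic kidney is made. PR3 is proteinase 3, the product of Prtn3, which neutrophils store in their granules. The labels give neither the age nor the way diabetes was induced, nor how the knockout was made, and they leave unsaid whether each library is a separate animal. The p-values therefore cover the spread among these 6 samples and no more, and that spread may be technical. Values are FPKM, fragments scaled to transcript length and to the mapped fragments of the library, which allows levels of different genes to be compared per length.

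Prtn3 itself was at 0.14, 0 and 0.07 FPKM in PR3 KO 1, 2 and 3, against 0.46, 0.21 and 0.22 FPKM in WT 1, 2 and 3, levels of a few fragments that make it a weak check of the labels. Depth was read from olfactory receptor genes, whose commonest lowest value, taken as 1 fragment on a median of 942 bases, stood at 0.08 FPKM for WT 1 and at 0.07 FPKM for the other 5 libraries. This estimate of like depths is rough, since 3 to 7 genes per library carried it. The glomerular label was checked against marker lists: all 12 podocyte genes and all 10 endothelial genes averaged at least 1 FPKM. Of the podocyte genes 7 fell and 0 rose, where 41.1% of all tested genes fell and 11.7% rose. After median-of-ratios scaling, which divides each library by its typical ratio to the others, 2 fell and 0 rose, where 22.2% of all tested genes fell and 25.6% rose. The podocyte genes summed to 511 to 761 FPKM in PR3 KO and 862 to 1330 FPKM in WT. Transcripts of the proximal tubule, the segment that follows the glomerulus, were abundant in every library as well. The 12 proximal tubule genes summed to 7861 to 9271 FPKM in PR3 KO and to 2810 to 4849 FPKM in WT. The 10 macrophage genes summed to 83.3 to 126 FPKM in PR3 KO and to 553 to 1130 FPKM in WT. WT 2 stood apart from the other libraries, with Spearman correlations to the PR3 KO libraries of 0.882 to 0.901, against 0.930 to 0.961 for WT 1 and WT 3. In bulk RNA, fewer cells of a type and less RNA per cell cannot be told apart.

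The 9 genes did not move as a block. Pax2 and Pax8 rose in PR3 KO, Cd44, Akap12, Ncoa7 and Ncam1 fell, Scin did not pass the test, and Dkk3 and Cdh6 were too low for it. Libraries of the 2 genotypes did not overlap for 8 of the 9 genes, Scin being the exception. That share has to be read against the background: of the 12388 genes tested, those averaging 1 FPKM or more, 65.1% did not overlap either. Among 2113 genes averaging 0.2 to 1 FPKM, the range of Dkk3 and Cdh6, 44.0% did not overlap. By limma on log2(FPKM + 1) with Benjamini-Hochberg adjustment over all 12388 genes, 2 of the 7 tested genes rose and 4 fell, where 11.7% of all tested genes rose, 41.1% fell and 52.8% passed in either direction. Of the genes that fell, Ncam1 passed the filter only through its WT libraries. As a description, the median log2 fold change of the 7 was -0.61, against -0.26 for all tested genes.

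**Figure D1:**
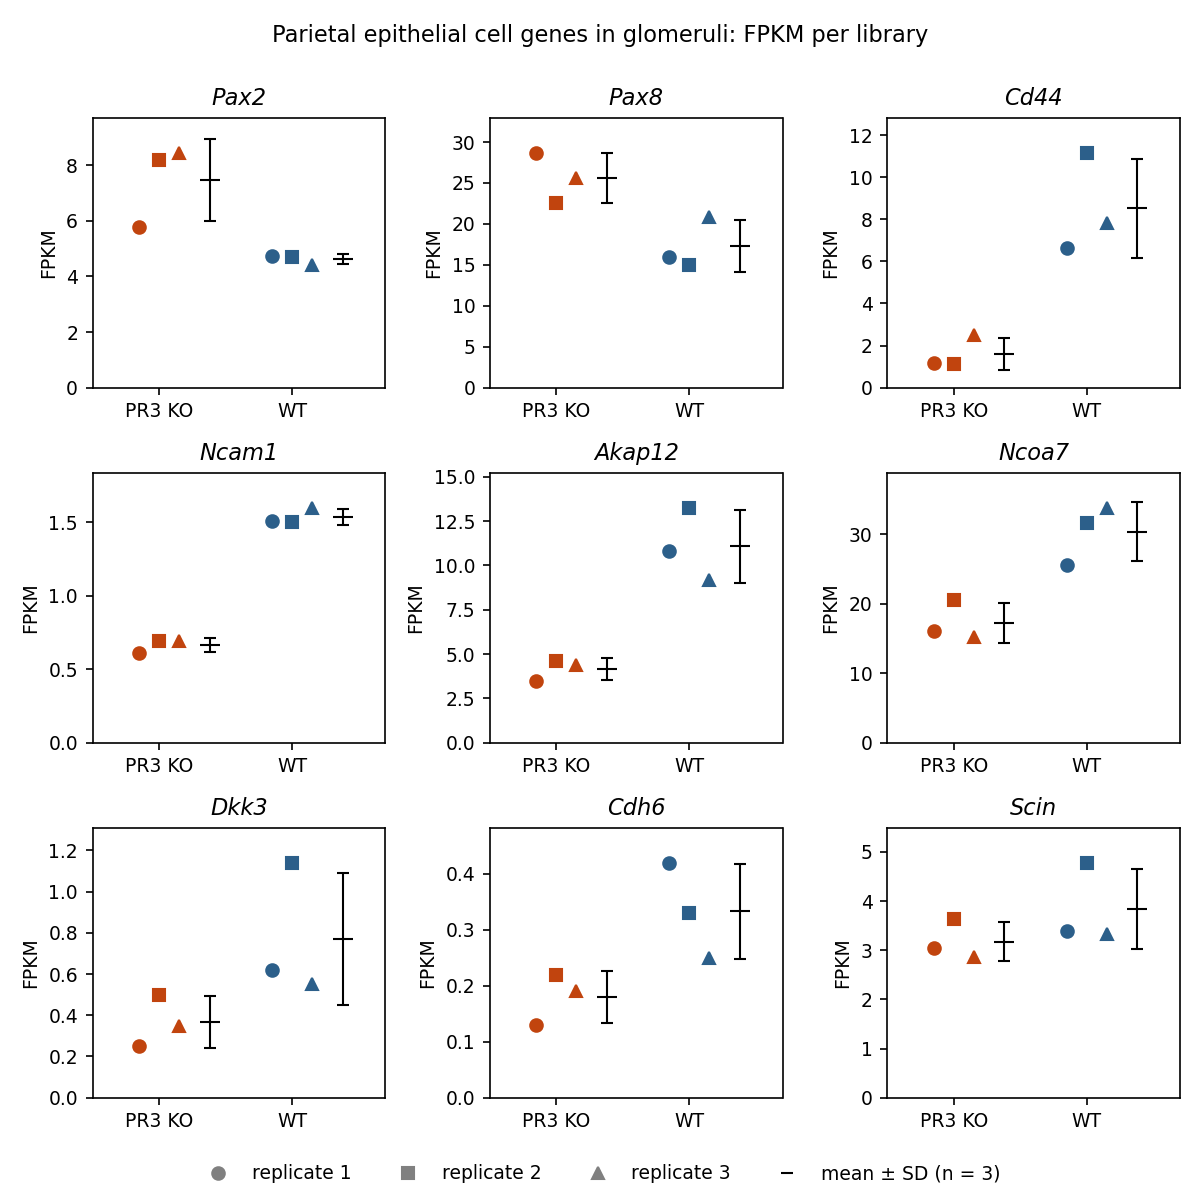
FPKM of the 9 genes in each library, PR3 KO left of WT in every panel, with the mean and SD of 3 libraries beside the points and each axis starting at 0. Pax2 and Pax8 lie higher in PR3 KO, Scin overlaps, and the other 6 genes lie lower in PR3 KO.

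The promoters of 3 of these genes are shown because the genes moved most clearly apart: Pax2 and Pax8, which rose together, and Cd44, which fell furthest. RefSeq promoter entries (GRCm38.p6) existed for 6 of the 9 genes, and the 250 bases before an annotated start are given, 5′ to 3′ on the strand of the gene. Motifs were searched on both strands, and capitals mark their matches. They were the GC box with the letters GGGCGG, the CCAAT box with the letters CCAAT, the TATA box with the letters TATAAA and the AP-1 site with the letters TGANTCA. The GC box of Pax8 lies on the opposite strand and so reads CCGCCC. The Pax2 window, 1 of 3 entries for that gene and the one richest in G and C, is chr19:44756656-44756905 on the plus strand, that of Pax8 is chr2:24475600-24475849 on the minus strand, and that of Cd44 is chr2:102901666-102901915 on the minus strand.
Pax2: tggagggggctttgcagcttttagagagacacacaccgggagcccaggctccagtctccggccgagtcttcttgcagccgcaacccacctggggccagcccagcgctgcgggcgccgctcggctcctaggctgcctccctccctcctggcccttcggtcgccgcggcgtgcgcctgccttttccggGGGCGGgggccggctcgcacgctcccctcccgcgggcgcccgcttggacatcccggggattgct
Pax8: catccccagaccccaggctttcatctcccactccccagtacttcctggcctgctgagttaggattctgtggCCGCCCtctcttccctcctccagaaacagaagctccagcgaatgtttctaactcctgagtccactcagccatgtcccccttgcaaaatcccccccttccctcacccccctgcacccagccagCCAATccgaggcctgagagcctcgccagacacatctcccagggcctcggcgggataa
Cd44: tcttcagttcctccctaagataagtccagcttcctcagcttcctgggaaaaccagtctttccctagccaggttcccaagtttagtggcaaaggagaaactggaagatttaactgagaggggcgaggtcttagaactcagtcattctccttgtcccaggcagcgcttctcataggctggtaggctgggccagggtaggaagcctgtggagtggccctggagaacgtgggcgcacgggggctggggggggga
The printed Pax2 window held 1 GC box and 25 CpG dinucleotides at 72.8% G and C. Its other entries held less: chr19:44746351-44746600 had no match to the 4 motifs and 5 CpG dinucleotides at 52.8% G and C. The entry at chr19:44755502-44755751 had 1 GC box and 20 CpG dinucleotides at 60.8% G and C. The Pax8 window held 1 GC box, 1 CCAAT box and 6 CpG dinucleotides at 60.4% G and C. The Cd44 window held no match to any of the 4 motifs and 5 CpG dinucleotides at 56.4% G and C. Of 32851 promoter windows of the same length, 32.7% held a GC box, 33.8% a CCAAT box, 12.4% a TATA box and 6.75% an AP-1 site, and the median G and C content was 52.4%. A match is a description of the letters only.

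The transcription factors were the genes that rose. Pax2 encodes a paired-box factor needed to form the nephron, which in the adult kidney stays on in parietal cells and the collecting duct. It was at 5.79, 8.20 and 8.45 FPKM in PR3 KO 1, 2 and 3, against 4.75, 4.71 and 4.41 FPKM in WT 1, 2 and 3. The WT libraries were nearly equal, and PR3 KO 1 lay closest to them. The mean was 7.48 ± 1.47 FPKM in PR3 KO and 4.62 ± 0.19 FPKM in WT (SD, n = 3 each), a log2 fold change of 0.58 (SE 0.14, limma adjusted p = 0.0117). The gene lies on chromosome 19, from 44746601 to 44838269 on the plus strand (GRCm38.p6).

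Pax8 encodes the related paired-box factor that is also kept along the tubule. It was at 28.69, 22.56 and 25.62 FPKM in PR3 KO 1, 2 and 3, against 16.01, 15.03 and 20.87 FPKM in WT 1, 2 and 3. The lowest PR3 KO library, PR3 KO 2, lay just above the highest WT library, WT 3. The mean was 25.6 ± 3.07 FPKM in PR3 KO and 17.3 ± 3.13 FPKM in WT (SD, n = 3 each), a log2 fold change of 0.55 (SE 0.14, limma adjusted p = 0.0145). This call was lost without PR3 KO 1 (0.47, limma adjusted p = 0.0532). Pax8 lies on chromosome 2, from 24420551 to 24475599 on the minus strand, and shares 367 exonic bases with the antisense transcript Gm13415. Whether counting used strand is not given in the sources used here, so in these bases the reads of both transcripts cannot be told apart.

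Both genes rose by about the same amount and lay above every WT library in each PR3 KO library. Their order among the PR3 KO libraries differed. PR3 KO 1 held the lowest Pax2 and the highest Pax8 of its genotype. The ratio of Pax8 to Pax2 was 4.96, 2.75 and 3.03 in PR3 KO 1, 2 and 3, against 3.37, 3.19 and 4.73 in WT 1, 2 and 3. These ratios overlapped between genotypes (exact two-sided permutation p = 0.7, n = 3 each).

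Proximal tubule transcripts moved in the same direction as the Pax genes: of the 12 proximal tubule genes 11 rose and 0 fell. Of the 12 genes of the loop, distal tubule and collecting duct 6 fell and 0 rose, or 2 and 0 after median-of-ratios scaling, and they summed to 811 to 1229 FPKM in PR3 KO and 1314 to 1657 FPKM in WT. Of all tested genes 41.1% fell and 11.7% rose, or 22.2% and 25.6% after that scaling. Per 1000 FPKM of the summed proximal tubule genes, Pax2 was at 0.656, 1.04 and 0.911 in PR3 KO, against 0.980, 1.68 and 1.05 in WT, and the genotypes overlapped. On the same footing Pax8 was lower in PR3 KO, at 3.25, 2.87 and 2.76 against 3.30, 5.35 and 4.97 in WT. PR3 KO 1 lay only just below WT 1 there (exact two-sided permutation p = 0.1, n = 3 each). Per 1000 FPKM of the summed loop, distal tubule and collecting duct genes, both were higher in PR3 KO. There Pax2 was at 7.14, 6.67 and 9.83 against 3.55, 2.84 and 3.36 in WT, and Pax8 at 35.4, 18.4 and 29.8 against 12.0, 9.07 and 15.9. Against the podocyte genes, Pax2 and Pax8 were also both higher in PR3 KO. Per 1000 summed FPKM, Pax2 was at 11.3, 10.8 and 13.3 against 5.51, 3.54 and 4.71 in WT, and Pax8 at 56.1, 29.6 and 40.4 against 18.6, 11.3 and 22.3. For the podocyte sum and for the loop, distal tubule and collecting duct sum, this lack of overlap was fixed in advance. Both Pax genes were higher, and both sums lower, in every PR3 KO library than in every WT library. These ratios are a description and no further test. Since the tubule sums did not overlap between genotypes, the parts of tubule RNA and of genotype in the rise of Pax2 and Pax8 cannot be told apart. With a score of the proximal tubule genes added to the model as a covariate, the log2 fold changes were 0.55 for Pax2 and 0.34 for Pax8, but neither passed (limma adjusted p = 0.864 and 0.920), and in that fit 0% of the tested genes passed (799 had an unadjusted p under 0.05).

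Other regulators of the forming kidney were examined next to Pax2 and Pax8. Of 14 listed genes 8 were tested, of which 3 rose and 1 fell, or 5 and 1 after median-of-ratios scaling, with a median log2 fold change of 0.25 against -0.26 for all tested genes. Sall1, a zinc finger factor of nephron progenitors, was at 10.38, 7.63 and 8.87 FPKM in PR3 KO and 5.18, 4.04 and 3.50 FPKM in WT (log2 fold change 0.93, SE 0.15, limma adjusted p = 0.00244). Gata3, which marks the nephric duct and, in the adult, mesangium and collecting duct, fell to 11.9 ± 3.30 FPKM in PR3 KO, against 26.0 ± 8.33 FPKM in WT (SD, n = 3 each; -1.05, limma adjusted p = 0.00965). The other 6 genes were under 1 FPKM on average and had no test in that fit. Among them Six2, which keeps nephron progenitors from differentiating, was at 0, 0.06 and 0 FPKM in PR3 KO, against 0.30, 0.74 and 0.75 FPKM in WT, with no overlap. With no filter on low values Six2 fell (-0.63, limma adjusted p = 0.00715), and 2 genes of the list rose and 2 fell. Six2 was named after its values were seen.

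Cd44 had the largest fall of the 9. It encodes the receptor for hyaluronan and osteopontin that appears on activated parietal cells and is carried by leukocytes as well. It was at 1.18, 1.14 and 2.48 FPKM in PR3 KO 1, 2 and 3, against 6.62, 11.16 and 7.80 FPKM in WT 1, 2 and 3. PR3 KO 3 was the highest of its genotype and still below every WT library. The mean was 1.60 ± 0.76 FPKM in PR3 KO and 8.53 ± 2.36 FPKM in WT (SD, n = 3 each), 5.33 times as much in WT. The log2 fold change was -1.88 (SE 0.24, limma adjusted p = 0.00106). Of all tested genes, 1.32% had a log2 fold change as low or lower. The gene lies on chromosome 2, from 102811141 to 102901669 on the minus strand.

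Macrophage transcripts fell with Cd44: all 10 macrophage genes fell, with a median log2 fold change of -2.64. Per 1000 FPKM of the summed macrophage genes, Cd44 was at 9.35, 13.7 and 20.8 in PR3 KO, against 12.0, 9.88 and 7.17 in WT, and the genotypes overlapped (exact two-sided permutation p = 0.3, n = 3 each). It stayed apart per 1000 FPKM of the summed podocyte genes, at 2.31, 1.50 and 3.92 in PR3 KO, against 7.68, 8.39 and 8.33 in WT. So it did per 1000 FPKM of the summed endothelial genes, at 1.25, 0.845 and 2.09 in PR3 KO, against 2.45, 3.42 and 2.78 in WT. The 9 lymphocyte genes with values, 3 of which averaged 1 FPKM or more, overlapped in their summed level, at 9.97 to 14.4 FPKM in PR3 KO and 12.1 to 26.7 FPKM in WT. The tested genes with the profile most like Cd44 over the 6 libraries were Lsp1, for an actin-binding protein of leukocytes, and Dok3, for a signalling adaptor of myeloid and B cells, at a root mean square difference of 0.11 on the centred log2 scale for each. Lsp1 was at 10.44, 11.47 and 15.51 FPKM in PR3 KO and 34.73, 63.85 and 45.70 FPKM in WT. The part of leukocyte RNA in the fall of Cd44 was not tested.

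The CD44 axis, its ligands, partners and the linkers to actin, was mixed. Of 16 listed genes 13 were tested, of which 2 rose and 7 fell, or 2 and 4 after median-of-ratios scaling, with a median of -0.49. Msn and Rdx, the moesin and radixin genes that tie CD44 to the cortex, both fell (Msn -1.41, limma adjusted p = 0.00142; Rdx -1.05, limma adjusted p = 0.000773). The third linker gene, Ezr for ezrin, was at 135.26, 125.03 and 124.64 FPKM in PR3 KO and 130.78, 119.76 and 123.75 FPKM in WT (0.04, limma adjusted p = 0.764). Cd9, a tetraspanin of activated parietal cells, fell to 60.3 ± 6.02 FPKM in PR3 KO, against 126 ± 10.8 FPKM in WT (SD, n = 3 each; -1.06, limma adjusted p = 0.000861). Egfr, the epidermal growth factor receptor gene, rose to 9.76 ± 0.08 FPKM in PR3 KO, against 4.96 ± 0.69 FPKM in WT (SD, n = 3 each; 0.86, limma adjusted p = 0.00109). Msn and Ezr were named after their values were seen.

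Akap12, which encodes a scaffold for protein kinases A and C, was at 3.46, 4.63 and 4.41 FPKM in PR3 KO 1, 2 and 3, against 10.84, 13.26 and 9.16 FPKM in WT 1, 2 and 3. All WT libraries lay well above all PR3 KO libraries. The mean was 4.17 ± 0.62 FPKM in PR3 KO and 11.1 ± 2.06 FPKM in WT (SD, n = 3 each). The log2 fold change was -1.22 (SE 0.15, limma adjusted p = 0.00102). The gene lies on chromosome 10, from 4266329 to 4359471 on the plus strand. The 10 endothelial genes fell with it, all 10 of them, and summed to 943 to 1349 FPKM in PR3 KO and 2698 to 3268 FPKM in WT. Per 1000 FPKM of that sum Akap12 overlapped, at 3.67, 3.43 and 3.72 in PR3 KO and 4.02, 4.06 and 3.27 in WT (p = 0.6 by a two-sided exact permutation test, n = 3 each). It did not overlap per 1000 FPKM of the summed podocyte genes, at 6.77, 6.08 and 6.96 in PR3 KO and 12.6, 9.97 and 9.78 in WT. The part of endothelial RNA in the fall of Akap12 was not tested. Of 14 listed genes of other kinase A scaffolds and the kinase itself, 12 were tested, of which 9 fell and 0 rose, or 4 and 2 after median-of-ratios scaling. Akap8 had a log2 fold change of -0.71, and the regulatory subunit genes Prkar1a and Prkar2b had -0.80 and -0.76 (limma adjusted p = 0.000932, 0.00191 and 0.00342).

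Ncoa7, a nuclear receptor coactivator with a TLDc domain, was at 16.02, 20.57 and 15.16 FPKM in PR3 KO 1, 2 and 3, against 25.62, 31.72 and 33.85 FPKM in WT 1, 2 and 3. Its WT libraries were also all above its PR3 KO libraries. The mean was 17.3 ± 2.91 FPKM in PR3 KO and 30.4 ± 4.27 FPKM in WT (SD, n = 3 each). The log2 fold change was -0.79 (SE 0.15, limma adjusted p = 0.00384), and median-of-ratios scaling made it -0.47 (limma adjusted p = 0.0291). Per 1000 FPKM of the summed podocyte genes it overlapped, at 31.3, 27.0 and 23.9 in PR3 KO and 29.7, 23.9 and 36.2 in WT. Set against the endothelial sum it was higher in PR3 KO, at 17.0, 15.3 and 12.8 per 1000 FPKM, against 9.49, 9.71 and 12.1 in WT. Ncoa7 lies on chromosome 10, from 30645582 to 30807700 on the minus strand, and shares 78 exonic bases with the neighbouring gene Hint3 on the same strand, which makes its level slightly uncertain. Of the other TLDc genes 3 were tested, of which 2 fell and 0 rose, or 1 and 0 after median-of-ratios scaling. Oxr1, an oxidation resistance gene of the same TLDc family, fell to 10.1 ± 1.29 FPKM in PR3 KO, against 23.3 ± 5.34 FPKM in WT (SD, n = 3 each; -1.12, limma adjusted p = 0.00163). Tbc1d24 also fell (-0.42, limma adjusted p = 0.0256), but did not pass once the libraries were scaled (-0.23, limma adjusted p = 0.122).

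Ncam1, a homophilic adhesion molecule of embryonic kidney and nerve, was at 0.61, 0.69 and 0.69 FPKM in PR3 KO 1, 2 and 3, against 1.51, 1.50 and 1.60 FPKM in WT 1, 2 and 3. Replicates of each genotype were close together and the genotypes far apart. The mean was 0.663 ± 0.046 FPKM in PR3 KO and 1.54 ± 0.055 FPKM in WT (SD, n = 3 each). The log2 fold change was -0.61 (SE 0.12, limma adjusted p = 0.00414) and -1.10 with a pseudocount of 0.1, since adding 1 FPKM shrinks the change of so low a gene. Ncam1 reached the filter only through its WT libraries, where it was higher, so this call is no independent support for the fall. Ncam1 lies on chromosome 9, from 49502129 to 49799393 on the minus strand, and 417 of its exonic bases are shared with the antisense transcript Gm11149. Its level per 1000 FPKM of the summed podocyte genes overlapped, at 1.19, 0.906 and 1.09 in PR3 KO and 1.75, 1.13 and 1.71 in WT. Of 9 listed partner genes 5 were tested, of which 3 fell and 0 rose, or 2 and 1 after median-of-ratios scaling. St8sia4, which encodes an enzyme that adds polysialic acid to NCAM, was at 1.09, 1.88 and 1.49 FPKM in PR3 KO and 5.80, 7.79 and 5.62 FPKM in WT (-1.57, limma adjusted p = 0.000797). The kinase gene Fyn fell as well (log2 fold change -1.29, limma adjusted p = 0.00106). The adhesion gene L1cam fell by 0.64 (limma adjusted p = 0.0125), a call lost under that scaling (limma adjusted p = 0.0626).

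Scin encodes scinderin, which severs and caps actin filaments in a calcium-dependent way. It was at 3.04, 3.63 and 2.86 FPKM in PR3 KO 1, 2 and 3, against 3.40, 4.78 and 3.34 FPKM in WT 1, 2 and 3. PR3 KO 2 lay above WT 1 and WT 3. The mean was 3.18 ± 0.40 FPKM in PR3 KO and 3.84 ± 0.82 FPKM in WT (SD, n = 3 each). The log2 fold change was -0.20 with a 95% interval of -0.55 to 0.14 (limma adjusted p = 0.273), and it was 0.05 after median-of-ratios scaling. Per 1000 FPKM of the summed podocyte genes, Scin was higher in PR3 KO, at 5.95, 4.77 and 4.52 against 3.95, 3.59 and 3.57 in WT. Scin lies on chromosome 12, from 40059769 to 40134228 on the minus strand. Its relatives in the gelsolin family went both ways: 2 of 6 tested genes rose and 4 fell, or 2 and 2 after median-of-ratios scaling. Vil1, villin of the brush border, rose to 59.4 ± 5.60 FPKM in PR3 KO, against 32.2 ± 7.48 FPKM in WT (SD, n = 3 each; 0.89, limma adjusted p = 0.00429). Capg, a capping protein gene abundant in macrophages, fell to 8.91 ± 0.76 FPKM in PR3 KO, against 25.2 ± 6.28 FPKM in WT (SD, n = 3 each; -1.37, limma adjusted p = 0.00109). Svil, for supervillin, fell too (log2 fold change -0.77, limma adjusted p = 0.00303).

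Dkk3 and Cdh6 averaged under 1 FPKM and had no limma test in the main fit. Dkk3, a secreted glycoprotein of the dickkopf family, was at 0.25, 0.50 and 0.35 FPKM in PR3 KO 1, 2 and 3, against 0.62, 1.14 and 0.55 FPKM in WT 1, 2 and 3. The gap between the highest PR3 KO and the lowest WT library was small. A two-sided exact permutation test gave p = 0.1 (n = 3 each), the smallest that 3 against 3 libraries can give. At the estimated depth and the length of its longest coding transcript, these values stand for about 12.7 to 25.5 fragments in PR3 KO and 27.6 to 58.1 fragments in WT. Dkk3 lies on chromosome 7, from 112116019 to 112159482 on the minus strand. Cdh6, the cadherin of early nephron epithelium, was at 0.13, 0.22 and 0.19 FPKM in PR3 KO 1, 2 and 3, against 0.42, 0.33 and 0.25 FPKM in WT 1, 2 and 3, on about 16.1 to 27.2 fragments in PR3 KO and 31.0 to 45.5 fragments in WT. Its exact two-sided permutation p was 0.1 as well (n = 3 each). Cdh6 lies on chromosome 15, from 13028699 to 13176407 on the minus strand. With no filter, neither Dkk3 (-0.36) nor Cdh6 (-0.18) passed (limma adjusted p = 0.0791 and 0.0611), where 30.4% of 18231 genes fell. Dkk3 was at 0.489, 0.657 and 0.553 per 1000 FPKM of the summed podocyte genes in PR3 KO, against 0.719, 0.857 and 0.587 in WT, and Cdh6 was at 0.254, 0.289 and 0.300 in PR3 KO, against 0.487, 0.248 and 0.267 in WT. On this footing the genotypes overlapped for both genes.

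In both families at least 1 other member was far more abundant. Dkk2, which encodes a secreted modulator of Wnt signalling, was at 18.04, 34.32 and 23.83 FPKM in PR3 KO, against 82.42, 114.79 and 100.58 FPKM in WT (-1.96, SE 0.23, limma adjusted p = 0.000910). It was the gene that fell of 4 tested dickkopf and Wnt receptor genes, and 0 rose, and these counts were the same after median-of-ratios scaling. Lrp5, Lrp6 and Kremen1, receptors for dickkopf proteins, did not pass. Dkk1, Dkk4 and Dkkl1 did not exceed 0.26 FPKM in any library. Of these dickkopf and receptor genes, all but Dkk2 were named after their values were seen. Of 11 listed cadherin and catenin genes 10 were tested, of which 1 rose and 5 fell, or 1 and 3 after median-of-ratios scaling. The endothelial cadherin gene Cdh5 and the truncated cadherin gene Cdh13 both fell (Cdh5 -1.29, limma adjusted p = 0.00113; Cdh13 -1.01, limma adjusted p = 0.00195). The beta-catenin gene Ctnnb1 fell by 0.66 (limma adjusted p = 0.00251), a call lost under that scaling (limma adjusted p = 0.0546).

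**Figure D2:**
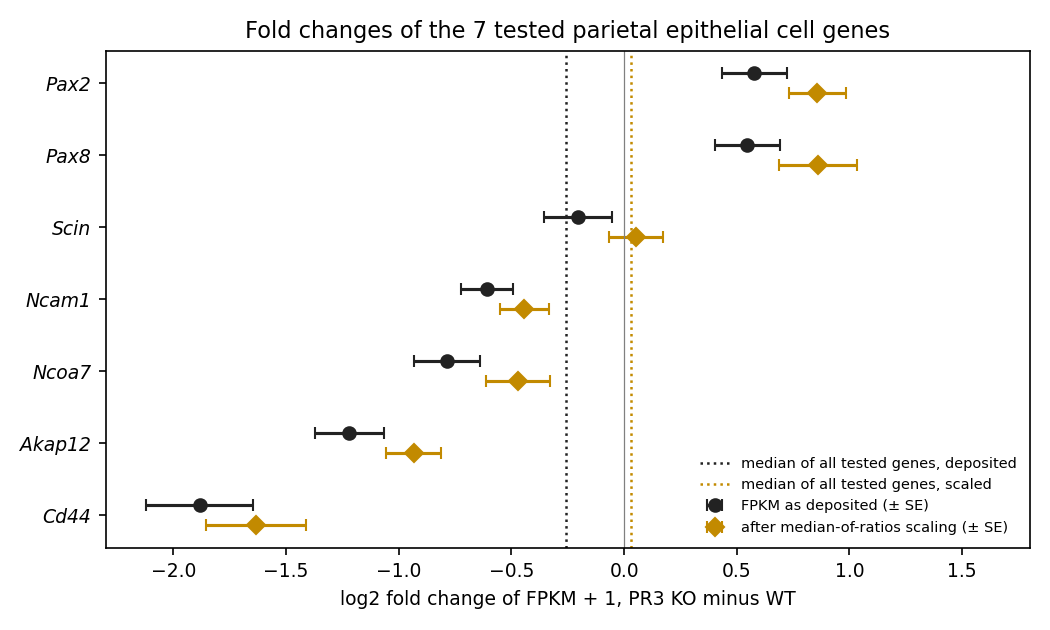
Log2 fold changes of FPKM + 1, PR3 KO minus WT, of the 7 tested genes, with SE, for FPKM as deposited (circles) and after median-of-ratios scaling (diamonds), and the median of all tested genes under each (dotted). Scaling moves every gene to the right, and Scin from -0.20 to 0.05, with the others keeping their side of 0.

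The scaling of the libraries shifts every value of this comparison together. The median log2 fold change of all tested genes was -0.26 with FPKM left as they were and 0.03 once scaled by median of ratios, where 25.6% of the genes rose and 22.2% fell. Relative to the deposited median, Pax2 was at 0.83, Pax8 at 0.80, Scin at 0.05, Ncam1 at -0.35, Ncoa7 at -0.53, Akap12 at -0.96 and Cd44 at -1.63. After the scaling, 2 of the 7 still rose and 4 still fell: Pax2 and Pax8 were both at 0.86 (limma adjusted p = 0.00272 and 0.00692), Ncam1 was at -0.44 (limma adjusted p = 0.0131), Akap12 at -0.93 (limma adjusted p = 0.00205) and Cd44 at -1.63 (limma adjusted p = 0.00224). With equal sums of FPKM, Pax2 lost its call (0.44, limma adjusted p = 0.0520).

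Ratios between 2 of these genes in the same library do not depend on that scaling. Pax8 over Ncoa7 was 1.79, 1.10 and 1.69 in PR3 KO 1, 2 and 3, against 0.625, 0.474 and 0.617 in WT 1, 2 and 3. Pax8 was thus the more abundant of the pair in each PR3 KO library, and Ncoa7 in each WT library. Pax2 over Akap12 was 1.67, 1.77 and 1.92 in PR3 KO, against 0.438, 0.355 and 0.481 in WT, again on opposite sides of 1. Pax2 over Cd44 was 4.91, 7.19 and 3.41 in PR3 KO, against 0.718, 0.422 and 0.565 in WT. Cd44 over Akap12 was 0.341, 0.246 and 0.562 in PR3 KO, against 0.611, 0.842 and 0.852 in WT. Ncoa7 over Akap12 overlapped, at 4.63, 4.44 and 3.44 in PR3 KO and 2.36, 2.39 and 3.70 in WT. Each of the 4 ratios that did not overlap had p = 0.1 by a two-sided exact permutation test (n = 3 each), and 51 ratios were computed in all, none of which can go below it. For a Pax gene over a gene that fell, the lack of overlap was fixed in advance, since neither gene overlapped between genotypes by itself. Those ratios are a description and no further test.

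**Figure D3:**
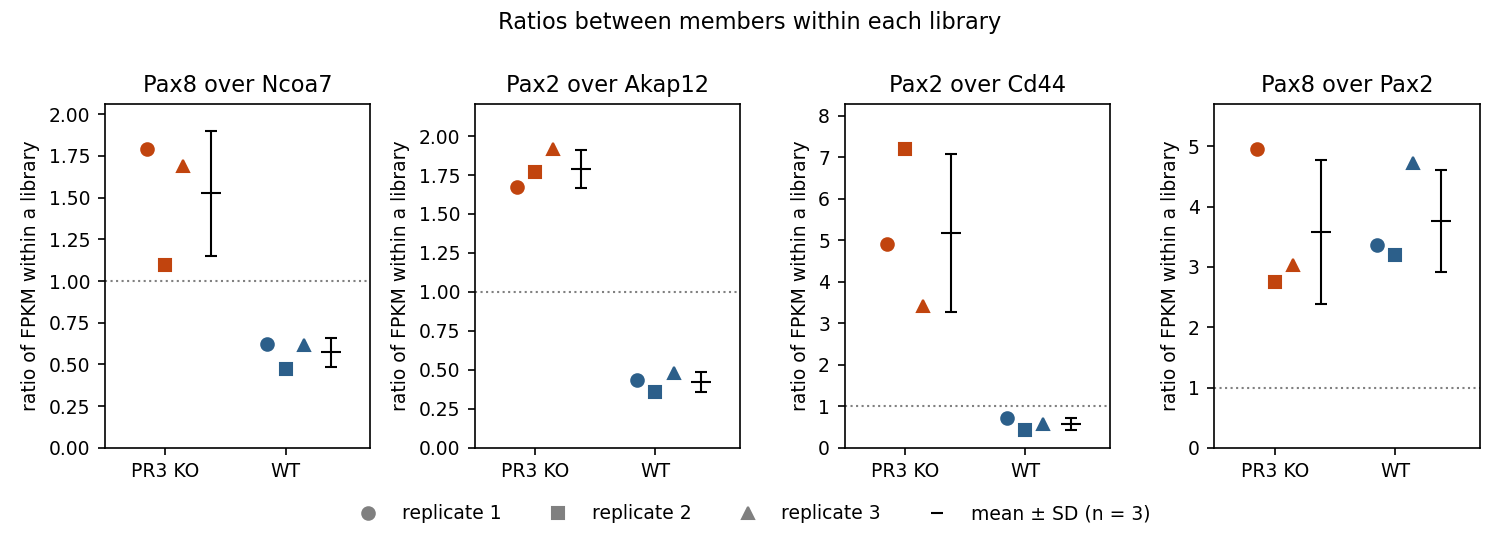
Ratios of FPKM of 2 genes within the same library, PR3 KO left of WT, with mean and SD of 3 libraries and a dotted line at 1. Pax8 over Ncoa7, Pax2 over Akap12 and Pax2 over Cd44 lie above 1 in each PR3 KO library and below 1 in each WT library, and Pax8 over Pax2 overlaps.

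The order of levels changed accordingly. In each of the 3 PR3 KO libraries it ran Pax8, Ncoa7, Pax2, Akap12, Scin, Cd44, Ncam1, Dkk3 and Cdh6 from high to low. Ranges of neighbours in this order overlapped for Akap12, at 3.46 to 4.63 FPKM, and Scin, at 2.86 to 3.63 FPKM, and for no other neighbours. In WT 1 and WT 3 it ran Ncoa7, Pax8, Akap12, Cd44, Pax2, Scin, Ncam1, Dkk3 and Cdh6, and in WT 2 Scin at 4.78 FPKM stood just above Pax2 at 4.71 FPKM. Among the WT neighbours, the ranges of Akap12 and Cd44 overlapped, as did those of Pax2 and Scin. The 9 genes together summed to 59.2, 62.1 and 60.2 FPKM in PR3 KO, against 69.8, 83.6 and 81.8 FPKM in WT.

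**Figure D4:**
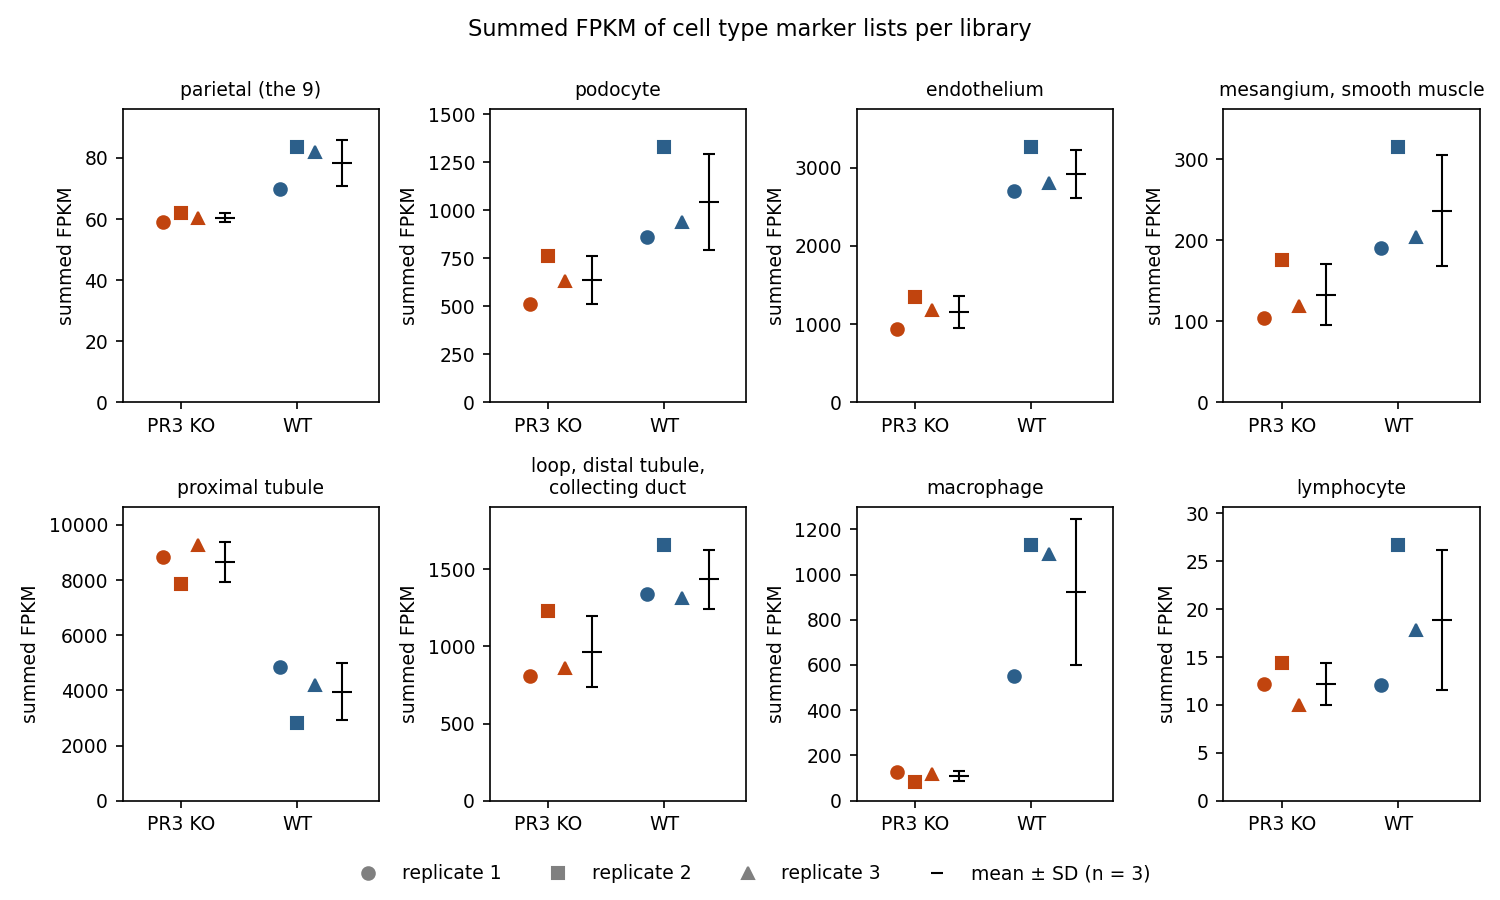
Summed FPKM of the 9 genes and of marker lists of other cell types in each library, PR3 KO left of WT, with mean and SD of 3 libraries, each axis from 0. Proximal tubule sums are higher in PR3 KO, lymphocyte sums overlap, and the other 6 sums are lower in PR3 KO, that of macrophages by the largest factor.

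Of 10 other genes used to mark parietal cells, all tested, 2 rose and 6 fell, or 2 and 4 after median-of-ratios scaling, with a median of -0.79. The tight junction gene Cldn1, the claudin of parietal cells, was at 4.43, 6.27 and 4.21 FPKM in PR3 KO, against 5.43, 5.10 and 4.63 FPKM in WT, and overlapped (-0.03, limma adjusted p = 0.855). Krt8, a keratin gene of simple epithelia, rose and was at 69.09, 63.88 and 66.87 FPKM in PR3 KO, against 37.02, 34.36 and 32.37 FPKM in WT (0.93, limma adjusted p = 0.000776). Prom1, the stem cell surface gene that encodes CD133, rose to 10.3 ± 1.37 FPKM in PR3 KO, against 7.27 ± 1.11 FPKM in WT (SD, n = 3 each; 0.45, limma adjusted p = 0.0240). Cd24a, which encodes the surface protein CD24 that is used together with CD133 to mark parietal progenitors in human kidney, fell to 242 ± 41.9 FPKM in PR3 KO, against 529 ± 112 FPKM in WT (SD, n = 3 each; -1.11, limma adjusted p = 0.00310). Vcam1 had the largest fall of the 10 (-1.83, limma adjusted p = 0.00389). Krt18, another keratin gene, fell (-0.70, limma adjusted p = 0.0167). Alcam (-0.80, limma adjusted p = 0.00953) and Cp (-1.10, limma adjusted p = 0.0261) fell too. Krt18 and Cp did not pass once the libraries were scaled (limma adjusted p = 0.104 and 0.0556). Cd9, described above, fell as well. Cldn1, Prom1, Vcam1, Krt18, Alcam and Cp were named after their values were seen. Several of these genes are shared with tubule, endothelium or leukocytes, whose part in the changes was not tested.

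**Figure D5:**
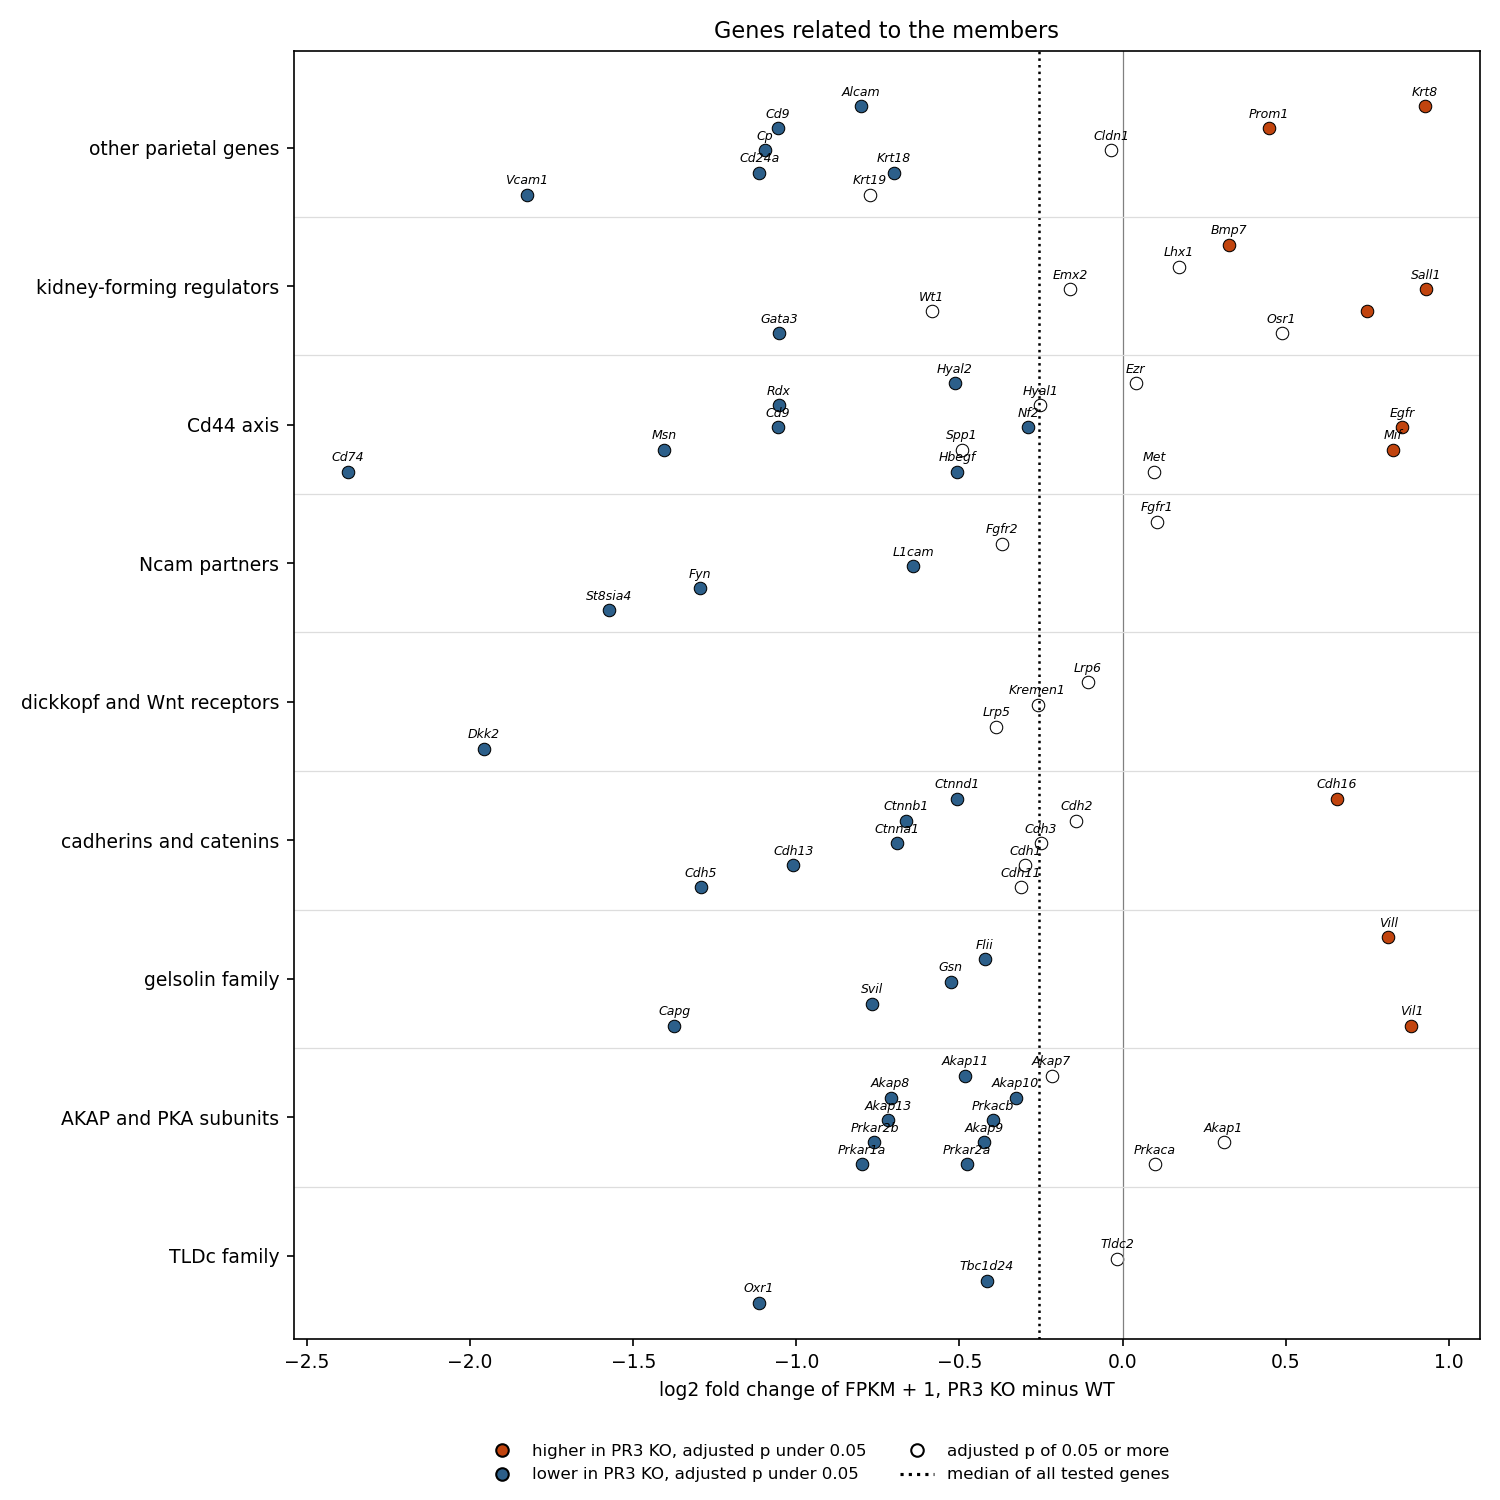
Log2 fold changes of FPKM + 1, PR3 KO minus WT, of the tested genes of 9 related lists, 1 point per gene, coloured where the limma adjusted p was under 0.05, with the median of all tested genes dotted. Of 70 different genes 10 rose and 37 fell, where 11.7% of all tested genes rose and 41.1% fell. The regulators of the forming kidney lie furthest to the right as a list.

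Over the 9 related lists together, 70 of 92 different genes were tested, of which 10 rose and 37 fell, with a median of -0.42. Of all tested genes 11.7% rose and 41.1% fell, with a median of -0.26. After median-of-ratios scaling 15 of the 70 rose and 21 fell, where 25.6% of all tested genes rose and 22.2% fell. The counts of each single list, and of each cell type list, stand against the same shares. Among all tested genes, those with profiles nearest to the members, by the root mean square difference of centred log2(FPKM + 1) over the 6 libraries, were Hs6st1 and Tulp3 for Pax2 (0.06 and 0.07) and Pex16 and Lage3 for Pax8 (0.05 and 0.06). They were Tgfb1 for Akap12 (0.04), Myrip and Hoxd8 for Ncoa7 (0.05 and 0.06), Gfod2 and Pphln1 for Ncam1 (both 0.03) and Adamts6 and Eml2 for Scin (0.04 and 0.05). Tgfb1, the transforming growth factor beta 1 gene, was at 27.07, 35.45 and 34.68 FPKM in PR3 KO, against 72.61, 92.15 and 68.26 FPKM in WT, following the library order of Akap12. The number of near profiles differed between the members: 3659 of 12035 candidates lay within 0.2 of Scin and 3538 within 0.2 of Ncam1. Within the same distance lay 1482 for Ncoa7, 725 for Pax8, 610 for Akap12, 355 for Pax2 and only 28 for Cd44.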

How the data were processed

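Poly(A) RNA, enriched on oligo(dT) beads after Trizol extraction, was sequenced by DNBSEQ, per the labels' protocols. Bowtie2 and build GRCm38.p6 were used, per the submitters' processing notes. The Bowtie2 version, counting tool, annotation and strand setting are not given. The unit is FPKM per the file headers, to 2 decimals and with no counts, as the authors deposited it. Of 22064 gene IDs per file 3242 were empty. Of the remaining 18822 IDs 18770 matched a RefSeq symbol, and 591 genes were at 0 in every library.

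The test was limma 3.58.1 (R 4.3.3, statmod 1.5.0) on log2(FPKM + 1) of genes averaging 1 FPKM or more, with genotype alone in the model, an intensity trend and robust moderation, and Benjamini-Hochberg adjustment over all tested genes (threshold 0.05). It was tested on simulated data. Fold changes are PR3 KO minus WT and understate changes of low genes. Genes under the filter, and ratios, had an exact two-sided permutation test. Tables and plots used Python 3.11.15, pandas 2.3.3, numpy 2.4.6 and matplotlib 3.10.9. FPKM depends on what else a library holds, so abundant tubule transcripts can lower other values.

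The members and gene lists were chosen with earlier results of these data known. Named genes are the 9 members, up to 3 genes per related list with the smallest adjusted p among those past the threshold, and the 2 nearest profiles per tested member; others are marked where named. A few genes that this rule names are not reported here. Cell type lists are given by counts and sums. Has2, Akap2, Tldc1 and Trac are counted among the listed genes, but no values were found under these symbols. The alternatives were another pseudocount, filter, scaling and variance model, a replicate block, libraries left out and a tubule covariate.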

Additional observations from a re-analysis of the deposited data

How the results depend on the processing

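Leaving the tubule covariate aside, the 6 members that passed kept their direction and call in 80 of 83 alternative values and lost the call in 3: Pax2 with equal FPKM sums, and Pax8 without PR3 KO 1 and without WT 2 and PR3 KO 3 together (0.46, limma adjusted p = 0.0514). In those 3 settings 1 member rose in place of 2. Scin turned to 0.0533 with median-of-ratios scaling and to 0.51 with the covariate. The covariate left 0 members, 0 related genes and 0 of all genes past the threshold in either direction (limma). Leaving out 1 library at a time, 1 to 2 members rose and 4 fell each time, 8 to 10 related genes rose and 29 to 36 fell, and of all genes 916 to 1518 rose and 3873 to 4731 fell, against 1454 and 5091 with all libraries. The rises were 916 without PR3 KO 1 and 936 without PR3 KO 3. Median-of-ratios scaling gave 3158 that rose, 2742 that fell and 21 related genes that fell; equal FPKM sums gave 894 that rose. With the replicate number as a block 1550 rose and 5143 fell, with 2 members up and 4 down. Same-numbered libraries correlated at 0.07, 0.27 and -0.09 in their deviations, so the numbers were not taken to pair them. Counts were not derived, and for Dkk3 and Cdh6 depth limits the comparison.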
